A study of Mus musculus with 81 samples.

Results

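The 10 genes described here are carried by the mitochondrial genome and encode subunits of the oxidative phosphorylation (OXPHOS) complexes. They are mt-Nd1, mt-Nd2, mt-Nd4, mt-Nd5 and mt-Nd6 of complex I, mt-Cytb of complex III, mt-Co1, mt-Co2 and mt-Co3 of complex IV, and mt-Atp6 of complex V. They were chosen by name from 57010 genes counted in each library, and all 10 were found in the tables. RNA was sequenced from CA1 pyramidal neurons (PNs), CA3 PNs and dentate gyrus granule cells (DGCs), taken by laser capture microdissection (LCM) from Nissl-stained hippocampal sections of mice at about 6 months of age (MO), which the methods of the study give as male for the ChN groups. Ts65Dn mice (Ts), a Down syndrome model with an extra chromosome that triplicates a block of genes, were compared with disomic mice (2N). The dams, Ts65Dn females mated with C57Bl/6J Eicher × C3H/HeSnJ F1 males, received a diet with 1.1 g/kg choline chloride (ChN) or a supplemented diet with 5.0 g/kg (ChP) from conception until the pups were weaned, and after weaning all mice ate the ChN diet. The 81 libraries came from 28 mice, of which 6 were 2N ChN, 6 were Ts ChN, 7 were 2N ChP and 9 were Ts ChP. CA1 PNs gave 6 2N ChN, 7 2N ChP, 5 Ts ChN and 9 Ts ChP libraries, CA3 PNs gave 6, 7, 6 and 7 in the same order, and DGCs gave 6, 7, 6 and 9. Each library held RNA from many captured cell bodies of 1 mouse.

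OXPHOS is the chain of protein complexes in the inner mitochondrial membrane that moves electrons from NADH and succinate to oxygen, pumps protons, and uses the proton gradient to make ATP. Most subunits are encoded in the nucleus, but a core set in complexes I, III, IV and V is encoded by the small circular mitochondrial genome. That genome is copied many times per cell, passes from mother to offspring and is transcribed from both strands as long precursors, from which the mRNAs, rRNAs and tRNAs are cut. mt-Nd6 is the protein-coding gene on the strand opposite to all the others. Neurons draw on OXPHOS for firing and synaptic transmission, and pyramidal neurons are known for a high energy demand.

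Each member is an intronless gene of chromosome M in the GRCm39 build. mt-Nd1 (ENSMUSG00000064341) spans 2751 to 3707, mt-Nd2 (ENSMUSG00000064345) 3914 to 4951 and mt-Co1 (ENSMUSG00000064351) 5328 to 6872. mt-Co2 (ENSMUSG00000064354) spans 7013 to 7696, mt-Atp6 (ENSMUSG00000064357) 7927 to 8607 and mt-Co3 (ENSMUSG00000064358) 8607 to 9390. mt-Nd4 (ENSMUSG00000064363) spans 10167 to 11544, mt-Nd5 (ENSMUSG00000064367) 11742 to 13565 and mt-Cytb (ENSMUSG00000064370) 14145 to 15288. mt-Nd6 (ENSMUSG00000064368) spans 13552 to 14070 on the minus strand and overlaps the end of mt-Nd5. Part of this stretch also exists in the nucleus. Positions 6394 to 11042 of the mitochondrial genome match chr1:24650616-24655265, a 4650-base copy on the minus strand of chromosome 1 that consists of 3 exact runs of 3067, 367 and 1222 bases. The start of mt-Co2 shows what this means for counting, because the mitochondrial gene and the copy could not be told apart by a read. The first line is chrM:7013-7072, the start of the mt-Co2 coding sequence on the plus strand, and the second is chr1:24654587-24654646 on the minus strand, at the start of the unprocessed pseudogene Gm28661, with 0 differences.
mt-Co2, mitochondrial: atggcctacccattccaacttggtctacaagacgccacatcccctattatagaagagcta
mt-Co2, chromosome 1 copy: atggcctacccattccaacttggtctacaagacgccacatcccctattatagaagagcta
The starts of mt-Atp6 at chrM:7927-7986 and of mt-Co3 at chrM:8607-8666 are shown for the same reason, since each had 0 differences from chromosome 1, at chr1:24653673-24653732 and chr1:24652993-24653052.
mt-Atp6, both places: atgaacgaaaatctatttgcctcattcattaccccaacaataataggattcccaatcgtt
mt-Co3, both places: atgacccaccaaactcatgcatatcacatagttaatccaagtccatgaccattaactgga
In mt-Co1 the edge of the copy falls inside the gene. The next lines give chrM:6364-6423 and its counterpart chr1:24655236-24655295 on the minus strand, with the 18 bases that differ in capitals, and show the differences ending where the copy begins.
mt-Co1, mitochondrial: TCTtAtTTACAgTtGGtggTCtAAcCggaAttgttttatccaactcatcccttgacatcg
mt-Co1, chromosome 1 copy: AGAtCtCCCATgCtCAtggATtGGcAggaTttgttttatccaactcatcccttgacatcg

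Counts were at or near 0 for the members that lie wholly within this copy. mt-Co2 had 1 count over the 81 libraries, mt-Co3 had 0 and mt-Atp6 had 2, whereas the least counted of the other 7 members, mt-Nd6, had 7780 counts and at least 28 in each library. mt-Co2, mt-Co3 and mt-Atp6 had 0% of their 50-base windows found only in the mitochondrial genome. For the counted members that share was 100% for mt-Nd1, mt-Nd6 and mt-Cytb, 92.4% for mt-Nd5, 91.7% for mt-Nd2, 48.9% for mt-Co1 and 37.8% for mt-Nd4. The remaining protein-coding genes of the mitochondrial genome behaved in the same way, with 0 counts for mt-Atp8, 0 for mt-Nd3 and 1 for mt-Nd4l at shares of 0%, 1.0% and 0%. Of 7 pseudogenes annotated on the chromosome 1 copy, 6 had between 0 and 4 counts in all, and Gm29216, which reaches past the edge of the copy, had 187 counts in 66 libraries. Every count of the 7 counted members was a whole number as deposited. A count of 0 allows a level of up to 8.37 CPM (counts scaled to a fixed library total) in the shallowest library and 0.632 CPM in the deepest, which covers counting error only and limits counted reads, not RNA. mt-Co2, mt-Co3 and mt-Atp6 were therefore not measured in these tables, and each result below concerns the 7 counted members. For mt-Co1 and mt-Nd4 the part of the gene with windows of its own lay outside the copy, and where in a gene its reads fell was not analysed here.

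**Figure D1:**
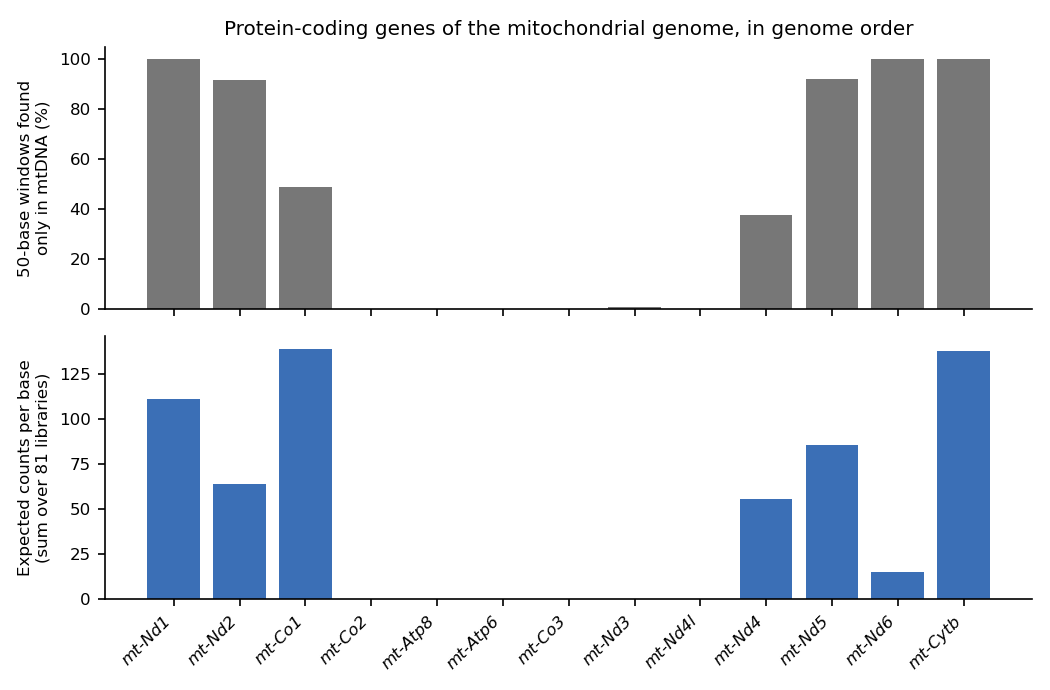
The 13 protein-coding genes of the mitochondrial genome in genome order, with the percentage of 50-base windows found only there (upper axis) and the counts per base summed over 81 libraries (lower axis). The genes at a share near 0% are those with counts of 0 or 1 or 2 in all, and mt-Nd4 and mt-Co1 lie between them and the genes at 91.7% to 100%.

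Library totals ranged from 358355 to 4744036 counts (median 1105133). The mean log2 CPM of 27 triplicated genes served to check the labels. In the CA3 PN library of mouse 15-145, which is labelled Ts while its CA1 PN and DGC libraries carry 2N labels, this mean was 5.83, against 5.45 to 5.81 in the 12 other libraries counted as 2N and 6.06 to 6.37 in Ts. That library was counted as 2N here. In the CA1 PN library labelled 2N of mouse 17-154 it was 6.26, near the Ts median of 6.29, and in the CA1 PN library labelled Ts of mouse 16-272 it was 5.97. Both kept their labels and enter each CA1 PN value with all libraries. Markers of the captured populations were high where the labels place them, with summed dentate granule cell markers at 1935 to 2547 CPM in DGCs and CA3 markers at 616 to 820 CPM in CA3 PNs. CA1 PN libraries were not alike. Of 27, 10 had summed levels of 7 CA2 markers of 522 to 2101 CPM, against 70.9 to 142 CPM in the other 17. These 10 libraries had CA1 markers at 54.2 to 1078 CPM against 1362 to 1998 CPM, and CA3 markers at 143 to 676 CPM against at most 28.1 CPM. All 7 CA2 markers were detected in each population. The 10 libraries were spread over the mouse groups (2 of 6 2N ChN, 3 of 7 2N ChP, 1 of 5 Ts ChN and 4 of 9 Ts ChP), and they include the libraries of mice 17-154 and 16-272. The members' counts of calls and median LFCs in CA1 PNs are given with and without the 10. Pcp4, a CA2 marker that lies in the triplicated block, was at 99.9 to 334 CPM in the 10 and at most 18.3 CPM in the 17, and without it the list was at 422 to 1773 CPM against 70.9 to 134 CPM.

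The 7 counted members together took 0.451% to 1.26% of a library's counts (median 0.753%), and the 2 mitochondrial rRNAs took 4.16% to 10.9%. Per unit of length, in the deposited TPM (transcript abundance corrected for gene length), mt-Cytb was highest with a median of 1510 TPM over 81 libraries, followed by mt-Co1 at 1416 TPM and mt-Nd1 at 1262 TPM. mt-Nd5 had a median of 768 TPM, mt-Nd2 698 TPM, mt-Nd4 556 TPM and mt-Nd6 215 TPM. The order was not that of each population, since in CA1 PNs the medians of mt-Co1 (1104 TPM) and mt-Nd1 (1052 TPM) were above that of mt-Cytb (998 TPM), and that of mt-Nd2 (672 TPM) was above that of mt-Nd5 (578 TPM). Neighbours in this order were not equally distinct. mt-Cytb exceeded mt-Co1 in 53 of 81 libraries and mt-Nd5 exceeded mt-Nd2 in 56, whereas mt-Nd1 exceeded mt-Nd5 in 80 and mt-Nd4 exceeded mt-Nd6 in 80. The order depends on what is counted as a gene's length. Divided by the full gene length, the summed counts were 139278 per 1000 bases for mt-Co1 and 138295 for mt-Cytb, which is not the order of the median TPM. When the summed counts were divided by the 50-base windows found only in the mitochondrial genome, mt-Co1 had 294369 counts per 1000 windows, mt-Nd4 152819 and mt-Cytb 144483. mt-Nd4 thus moved from sixth to second. mt-Nd6, the minus-strand gene, was lowest by each measure, at 16553 counts per 1000 windows against 73310 for mt-Nd2, the next.

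The members moved together from library to library, apart from mt-Nd6. After each group of libraries was centred at its mean log2 CPM, the 15 pairs among the other 6 members had a median correlation of 0.84 (0.61 to 0.94) over 81 libraries, and the 6 pairs with mt-Nd6 had a median of 0.47 (0.35 to 0.59). The same pair of medians was 0.93 and 0.48 in CA1 PNs, 0.68 and 0.49 in CA3 PNs, and 0.75 and 0.59 in DGCs. These correlations are descriptions, since all points of a library share its depth and its scaling, and mt-Nd6 rests on the fewest counts. Of 20486 other genes, those most like the members' mean were the 12S and 16S rRNA genes mt-Rnr1 (r = 0.92) and mt-Rnr2 (r = 0.88), followed by Snap25 (r = 0.81), a SNARE protein of synaptic vesicle release. In CA1 PNs, CA3 PNs and DGCs, r with the members' mean was 0.90, 0.64 and 0.59 for Snap25. It was 0.95, 0.76 and 0.93 for mt-Rnr1 and 0.94, 0.66 and 0.82 for mt-Rnr2. Among the same genes, which leave out the members, those most like mt-Nd6 were Mapk10 (r = 0.54), Tmx4 (r = 0.49) and Ube2k (r = 0.49). With mt-Nd6 the member mt-Nd2 had r = 0.59 and mt-Rnr1 had r = 0.47. Within single populations r with mt-Nd6 was 0.38 to 0.64 for Mapk10, 0.23 to 0.67 for Tmx4, 0.32 to 0.54 for Ube2k and 0.44 to 0.72 for mt-Rnr1. The within-group SD of the 7 members was 0.34 to 0.52 on the log2 scale in CA1 PNs, 0.14 to 0.32 in CA3 PNs and 0.15 to 0.44 in DGCs. It was widest in CA1 PNs for 6 of 7 members, and for mt-Nd6 in DGCs (0.44 against 0.41 in CA1 PNs). Genes of like level had median SDs of 0.20 to 0.25 in CA1 PNs, 0.11 to 0.22 in CA3 PNs and 0.10 to 0.22 in DGCs, below that of the member in each case.

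**Figure D2:**
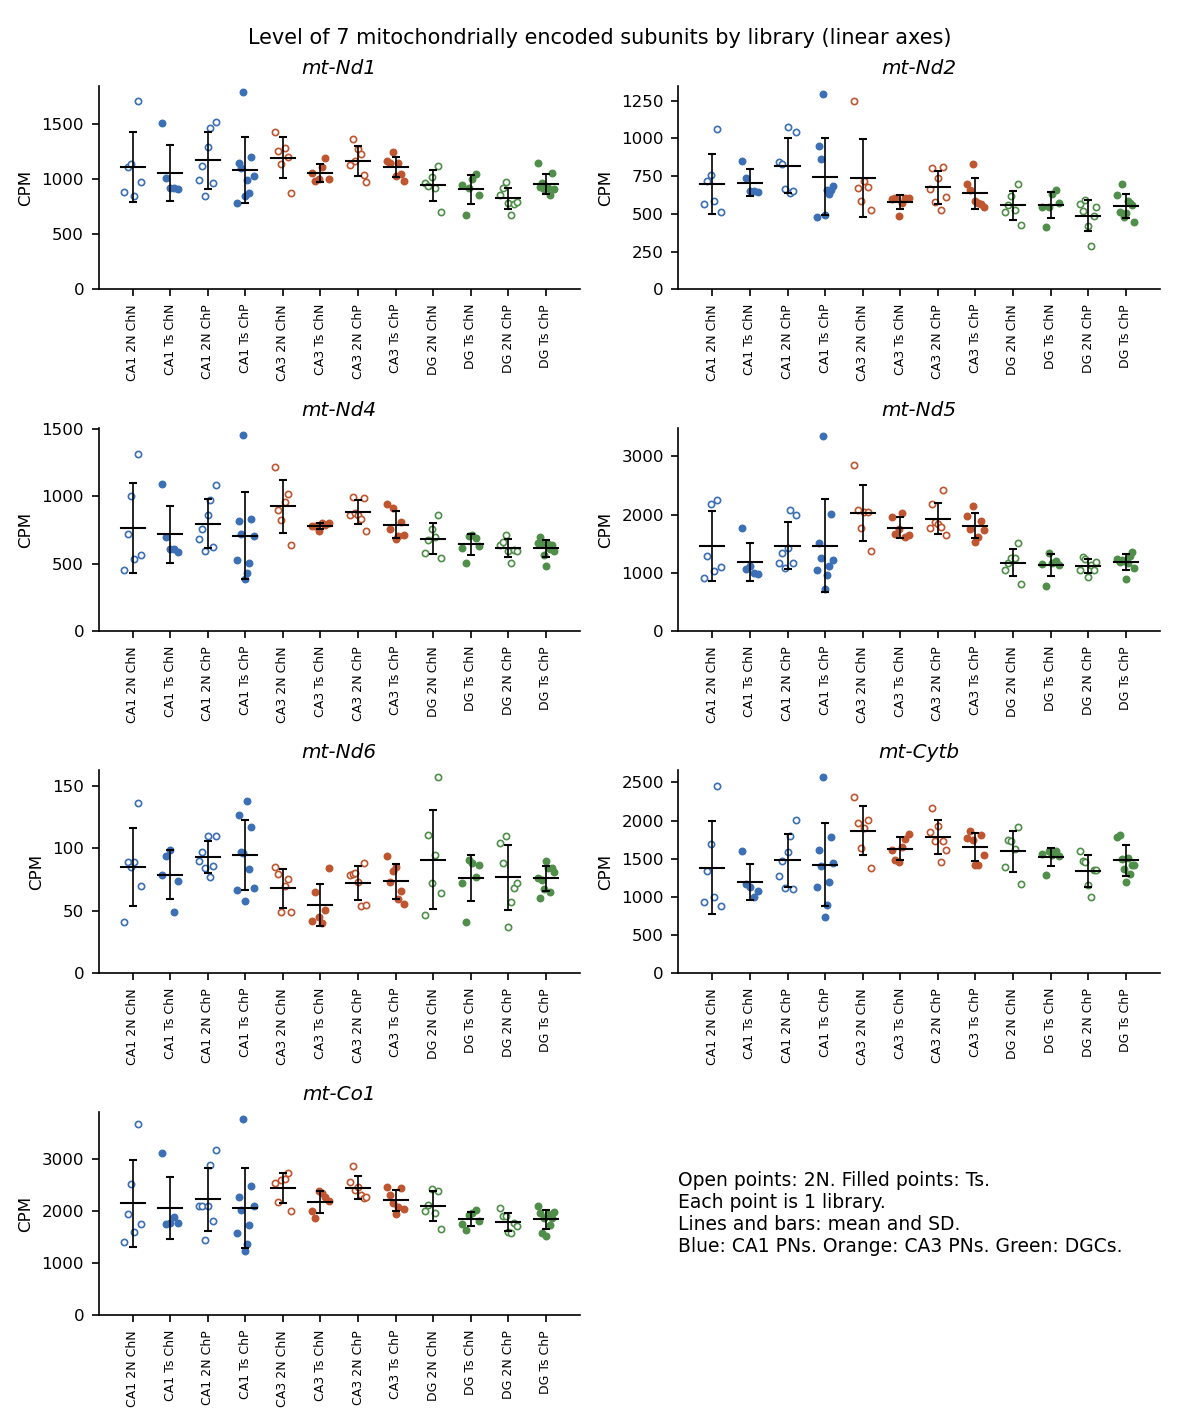
CPM of each counted member in each of 81 libraries by group, with open points for 2N and filled points for Ts, and bars for the mean and SD of a group. CA1 PN groups have a few libraries far above the rest, such as the Ts ChP library at 3348 CPM for mt-Nd5, and CA3 PN groups lie above DGC groups for mt-Nd5.

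The wide spread in CA1 PNs went with the CA2 markers. The 10 libraries with these markers held 0.730% to 1.26% of counts in the members (median 0.916%), against 0.451% to 0.779% (median 0.602%) in the other 17, and the 9 highest shares of the 27 were among the 10. mt-Nd5 was at 1258 to 3348 CPM (median 1998) in the 10 and at 733 to 1340.0 CPM (median 1091) in the 17. mt-Co1 was at 2019 to 3765 CPM against 1229 to 2102 CPM, and mt-Nd4 at 723 to 1451 CPM against 390 to 757 CPM. These members overlapped between the 10 and the 17 only at the edges of the ranges. mt-Nd6 overlapped widely, at 77.2 to 136 CPM against 41.3 to 137 CPM. Other marker lists also differed between these libraries, with inhibitory neuron markers at 246 to 439 CPM against 138 to 221 CPM and oligodendrocyte markers at 163 to 325 CPM against 104 to 206 CPM. Over the 27 CA1 PN libraries the group-centred correlation of the members' mean was 0.85 with the CA2 markers and 0.84 with the CA3 markers, and over the 17 libraries the former was -0.30. The part of each cell type in these levels was not tested, and in such bulk samples more cells of a type and more RNA per cell cannot be told apart.

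**Figure D3:**
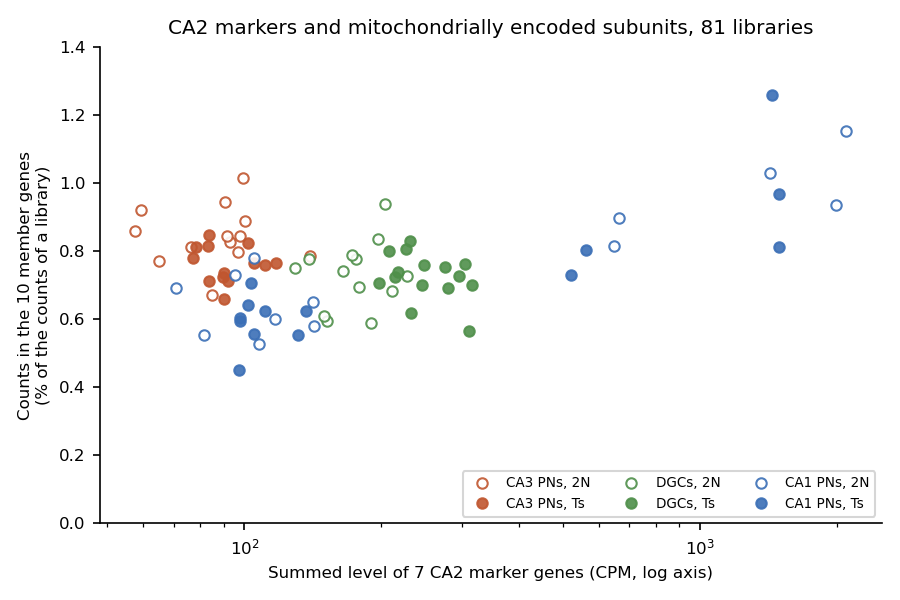
Summed level of 7 CA2 markers in CPM (log axis) against the percentage of counts in the members, for 81 libraries by population. The 10 CA1 PN libraries over 500 CPM lie at 0.730% to 1.26%, and the other 17 CA1 PN libraries at 0.451% to 0.779%.

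The populations were compared within each of the 4 mouse groups with edgeR's quasi-likelihood test, where a call is a Benjamini-Hochberg adjusted p below 0.05 over all genes tested. mt-Nd5, a proton-pumping core subunit of complex I, was called higher in CA3 PNs than in DGCs in all 4 mouse groups. In 2N ChN mice its level was 1383 to 2853 CPM (median 2044, 2030 ± 483, mean ± SD, n = 6) in CA3 PNs and 806 to 1509 CPM (median 1216, 1177 ± 235, n = 6) in DGCs, with 5 of 6 CA3 PN libraries above the highest DGC library. In 2N ChP mice it was 1651 to 2419 CPM (median 1840.0, 1931 ± 269, n = 7) against 929 to 1267 CPM (median 1130, 1122 ± 118, n = 7). In Ts ChN mice it was 1623 to 2027 CPM (median 1706, 1777 ± 173, n = 6) against 784 to 1346 CPM (median 1156, 1132 ± 187, n = 6), and in Ts ChP mice 1527 to 2154 CPM (median 1749, 1808 ± 217, n = 7) against 889 to 1364 CPM (median 1210, 1186 ± 136, n = 9). In the last 3 groups no DGC library reached the lowest CA3 PN library. CA3 PN and DGC libraries did not overlap, in either direction, for 14.5% of all genes in 2N ChP, 20.4% in Ts ChN and 15.6% in Ts ChP mice. The log2 fold change (LFC) of CA3 PNs over DGCs was 0.76 (SE 0.24, adjusted p = 0.0189) in 2N ChN, 0.76 (adjusted p = 2.73e-05) in 2N ChP, 0.63 (SE 0.15, adjusted p = 0.00267) in Ts ChN and 0.60 (SE 0.22, adjusted p = 0.0281) in Ts ChP mice. As a share of the members' own counts, which needs no scaling between libraries, mt-Nd5 had a median of 17.1% in DGCs and 17.8% in CA1 PNs against 21.4% in CA3 PNs. Astrocyte markers were at 1637.7 to 2829.0 CPM in CA3 PNs, 658.28 to 1073.3 CPM in DGCs and 427.95 to 1415.3 CPM in CA1 PNs. Oligodendrocyte markers were at 254.64 to 534.24 CPM in CA3 PNs and 98.25 to 238.34 CPM in DGCs. The part of these cell types in the differences between populations, here and below, was not tested. The call in 2N ChN mice was lost without mouse 15-145 or without mouse 15-147 (LFC 0.61 to 0.86 over all single mice left out), and that in Ts ChP mice without any of 4 mice (LFC 0.56 to 0.63) and with library totals in place of edgeR's TMM scaling between libraries (LFC 0.38).

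The number of other members called between CA3 PNs and DGCs varied with the mouse group and with the libraries in the fit. In 2N ChN mice 1 of 7 was called, beside 43.7% of all genes, in Ts ChN 1 of 7 beside 44.5% and in Ts ChP 1 of 7 beside 44.2%, in each case mt-Nd5. In 2N ChP mice 6 of 7 were called higher in CA3 PNs, beside 40.4% of all genes called in either direction. There mt-Nd4 had an LFC of 0.49 (adjusted p = 0.000216), mt-Nd1 0.47 (adjusted p = 0.00034), mt-Nd2 0.44 (adjusted p = 0.023), mt-Co1, the catalytic core of cytochrome c oxidase, 0.42 (adjusted p = 0.00442) and mt-Cytb, the cytochrome b of complex III, 0.38 (adjusted p = 0.0119). For 4 of 7 members, mt-Nd1, mt-Nd4, mt-Nd5 and mt-Co1, the CA3 PN and DGC libraries of 2N ChP mice did not overlap, as was so for 14.5% of all genes, with 40.4% called. The fits also held the CA1 PN libraries, which bear on the estimate of spread. Without the 10 with CA2 markers the counts between CA3 PNs and DGCs were 3, 6, 4 and 4 of 7 in 2N ChN, 2N ChP, Ts ChN and Ts ChP mice, all higher in CA3 PNs, beside 47.8%, 43.9%, 47.2% and 47.3% of all genes. mt-Nd1 and mt-Nd4 were then called in each mouse group beside mt-Nd5, while the median LFC of the 7 members was 0.34, 0.44, 0.20 and 0.21, against 0.31, 0.44, 0.20 and 0.21 with all libraries. mt-Nd6 was the member with LFCs below 0 in all 4 mouse groups, at -0.44, -0.09, -0.50 and -0.05 in 2N ChN, 2N ChP, Ts ChN and Ts ChP mice, none of them called. Scaling bore on these counts, because library totals in place of TMM moved the median LFC of all genes in a comparison of populations to between -0.26 and 0.11 and changed the sign of 15 of 84 member values. Among CA3 PNs against DGCs the sign changed for mt-Cytb in 2N ChN and Ts ChN, for mt-Nd2 in Ts ChN, and for mt-Nd1, mt-Nd2 and mt-Cytb in Ts ChP mice. With library totals 3 of 7 members were called in 2N ChP, 2 in Ts ChN and 0 in Ts ChP mice. The share of all genes called with that scaling is not given here, so these counts are not set against all genes.

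With all libraries, 0 to 3 of 7 members were called between CA1 PNs and CA3 PNs. In 2N ChN mice 0 of 7 members were called (23.3% of all genes), in 2N ChP 1 of 7 (22.9%), in Ts ChN 3 of 7 (25.3%) and in Ts ChP 0 of 7 (24.5%). The called members were mt-Nd5, lower in CA1 PNs of 2N ChP (LFC -0.41, adjusted p = 0.0192) and Ts ChN mice (LFC -0.58, adjusted p = 0.0126), mt-Cytb, lower in Ts ChN (LFC -0.45, adjusted p = 0.000484), and mt-Nd2, higher in Ts ChN (LFC 0.29, adjusted p = 0.0298). Without the 10 libraries with CA2 markers, which left 4, 4, 4 and 5 CA1 PN libraries, the counts rose to 4, 5, 4 and 5 of 7. mt-Nd4, mt-Nd5, mt-Cytb and mt-Co1 were then lower in CA1 PNs in all 4 mouse groups, and mt-Nd1 in both ChP groups. The LFC of mt-Nd5 became -0.91 (adjusted p = 0.00222) in 2N ChN, -0.71 (adjusted p = 1.7e-09) in 2N ChP, -0.77 (adjusted p = 6.18e-05) in Ts ChN and -0.82 (adjusted p = 1.36e-05) in Ts ChP mice. The median of the 7 members moved from -0.18 to -0.55, from -0.15 to -0.40, from -0.08 to -0.29 and from -0.11 to -0.46. The background without these libraries was 28.0%, 26.2%, 29.6% and 29.3% of all genes. mt-Nd6 had positive LFCs of 0.31, 0.34, 0.55 and 0.33 with all libraries, none called.

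Between CA1 PNs and DGCs the direction itself depended on those libraries. With all of them, 0 of 7 members were called in 2N ChN (34.3% of all genes), 4 in 2N ChP (31.8%), 2 in Ts ChN (33.8%) and 1 in Ts ChP mice (39.3%). In 2N ChP mice mt-Nd2 (LFC 0.71, adjusted p = 0.000745), mt-Nd1 (0.47, adjusted p = 0.000502), mt-Nd4 (0.33, adjusted p = 0.0132) and mt-Nd5 (0.34, adjusted p = 0.0415) were higher in CA1 PNs, and mt-Nd2 did not overlap between 638 to 1075 CPM in CA1 PNs and 290 to 594 CPM in DGCs, as was so for 9.52% of all genes. With the mouse as a block, mt-Nd1 and mt-Nd2 were called there and mt-Nd4 and mt-Nd5 were not. In Ts ChN mice mt-Nd2 was higher (LFC 0.31, adjusted p = 0.0137) and mt-Cytb lower (LFC -0.37, adjusted p = 0.0025), and in Ts ChP mice mt-Nd2 was higher (LFC 0.42, adjusted p = 0.0394), a call lost with the block. Without the 10 libraries the counts were 2, 1, 1 and 1, beside 32.3%, 27.9%, 33.4% and 34.3% of all genes. mt-Cytb was then lower in CA1 PNs in 2N ChN (LFC -0.64, adjusted p = 0.00874), Ts ChN (LFC -0.50, adjusted p = 1.5e-09) and Ts ChP mice (LFC -0.45, adjusted p = 0.0128), mt-Co1 was lower in 2N ChN mice (LFC -0.34, adjusted p = 0.0247), and mt-Nd2 stayed called in 2N ChP mice (LFC 0.57, adjusted p = 0.0111). The median of the 7 members moved from 0.13 to -0.28, from 0.33 to 0.07, from 0.13 to -0.07 and from 0.19 to -0.20.

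**Figure D4:**
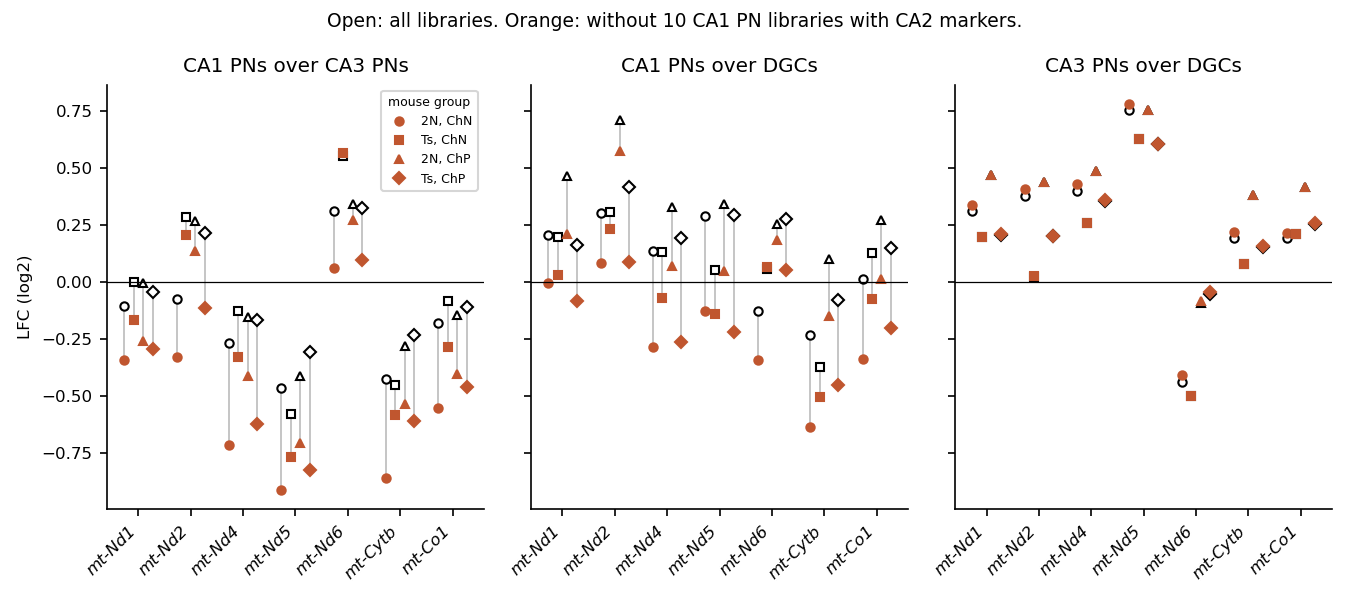
LFC of each counted member for CA1 PNs over CA3 PNs, CA1 PNs over DGCs and CA3 PNs over DGCs in each mouse group, with all libraries (open) and without the 10 CA1 PN libraries with CA2 markers (orange). The orange points lie lower for CA1 PNs over CA3 PNs, with mt-Nd5 at -0.91 to -0.71, and mt-Nd5 is above 0 for CA3 PNs over DGCs in each group.

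Of the nuclear-encoded subunits of the same complexes that were called, most were higher in both pyramidal populations than in DGCs. Between CA3 PNs and DGCs of 2N ChN mice, where 43.7% of all genes were called, 19 of 37 complex I subunits were higher in CA3 PNs and none lower (median LFC 0.46 over the list), as were 2 of 4 of complex II (0.48) and 6 of 9 of complex III (0.60). Of complex IV 6 of 12 were higher and 1 lower (0.48), and of complex V 13 of 18 were higher and 1 lower (0.51), against a median of -0.04 over all genes tested and 0.31 over the 7 counted members. In 2N ChP mice the subunits higher in CA3 PNs were 16, 2, 4, 8 and 10 in the order of the complexes, with none lower (medians 0.41 to 0.51, members 0.44). There 40.4% of all genes were called in either direction. In Ts ChN mice they were 18, 2, 4, 5 and 9, with 1 lower in each of complexes IV and V (medians 0.18 to 0.45, members 0.20), beside 44.5% of all genes. In Ts ChP mice they were 19, 3, 5, 6 and 11, again with 1 lower in each of IV and V (medians 0.32 to 0.52, members 0.21), beside 44.2%. Several of these counts were near or below the share of all genes called.

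Between CA1 PNs and DGCs the subunits called higher in CA1 PNs were 18 of 37 in complex I (median 0.44), 2 of 4 in II (0.28), 3 of 9 in III (0.35), 4 of 12 in IV (0.41) and 11 of 18 in V (0.45) in 2N ChN mice, beside 34.3% of all genes. They were 13, 2, 6, 5 and 10 in 2N ChP mice (31.8% of all genes), 11, 2, 4, 0 and 5 in Ts ChN mice (33.8%), and 21, 2, 8, 8 and 10 in Ts ChP mice (39.3%), with 1 complex I subunit lower in the last. The counts without the libraries with CA2 markers were 15, 2, 2, 1 and 9 in 2N ChN, 6, 2, 2, 1 and 5 in 2N ChP, 9, 2, 2, 0 and 4 in Ts ChN, and 17, 1, 4, 5 and 9 in Ts ChP mice, where 1 subunit of each of complexes I and IV was lower. Beside these, 32.3%, 27.9%, 33.4% and 34.3% of all genes were called in the same order of mouse groups, and several counts were below that share. The medians of complex I were then 0.45, 0.29, 0.33 and 0.42 in these mouse groups, while those of the members were -0.28, 0.07, -0.07 and -0.20. Library totals in place of TMM left 11 of 37 complex I subunits higher between CA3 PNs and DGCs of 2N ChN mice (median 0.27). The share of all genes called with library totals is not given here, so that count is not set against all genes. Whether the members and the nuclear subunits differed from each other was not tested.

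Genotype was compared within each population and diet, and here a DEG was a gene with an unadjusted p below 0.05, the threshold of the study, with the adjusted p given beside it. In CA3 PNs of ChN mice all 7 counted members had LFCs below 0 in Ts relative to 2N (median -0.19, against -0.0003 over all genes), and 3 of 7 were DEGs, all lower, beside 9.2% of all genes. mt-Co1 was at 1859 to 2381 CPM (median 2225, 2171 ± 205, n = 6) in Ts and 2002 to 2715 CPM (median 2558, 2435 ± 284, n = 6) in 2N CA3 PNs (LFC -0.17, SE 0.07, adjusted p = 0.364). mt-Nd1, the complex I subunit next to the ubiquinone site, was at 979 to 1187 CPM (median 1023) in Ts and 869 to 1424 CPM (median 1224) in 2N (LFC -0.18, SE 0.08, adjusted p = 0.448). mt-Nd4 was at 742 to 802 CPM (median 783, 782 ± 22.1, n = 6) in Ts and 637 to 1214 CPM (median 928, 924 ± 194, n = 6) in 2N (LFC -0.25, SE 0.11, adjusted p = 0.518). For mt-Nd1 and mt-Nd4 all 6 Ts libraries lay below the 2N median and inside the 2N range, while for mt-Co1 2 of the 6 lay below the lowest 2N library. The groups overlapped for each of the 7 members. The LFCs of mt-Nd2 (-0.36), mt-Nd5 (-0.19), mt-Nd6 (-0.36) and mt-Cytb (-0.19) did not pass the threshold, and the adjusted p of the 7 members lay between 0.364 and 0.764.

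The number of DEGs in CA3 PNs of ChN mice depended on single libraries. The CA3 PN library of mouse 15-145 held 1.02% of its counts in the members, the highest share of the CA3 PN libraries, and had 1214 CPM of mt-Nd4, and with that library as Ts, as its label has it, 0 of 7 members were DEGs and mt-Nd2 (LFC 0.07) and mt-Nd5 (LFC 0.03) were above 0. mt-Co1 stayed a DEG with each of the 12 mice left out in turn (LFC -0.21 to -0.13). The number of DEGs fell to 1 without mouse 15-147, 16-490, 17-153, 17-172 or 17-21 and rose to 5 without mouse 17-154 and to 7 without mouse 17-56, whose CA3 PN library was the lowest of the 2N libraries for mt-Co1 (2002 CPM) and mt-Nd4 (637 CPM). The share of all genes that were DEGs in these fits is not given here, so these counts are not set against all genes. Inhibitory neuron markers also differed between these groups, at 137 to 356 CPM (median 260) in 2N and 123 to 168 CPM (median 153) in Ts CA3 PNs, with all 6 markers detected, and their part in the result was not tested. The rRNA genes moved in the same direction, with mt-Rnr1 at an LFC of -0.23 (adjusted p = 0.448) and mt-Rnr2 at -0.18 (adjusted p = 0.508) in Ts CA3 PNs, both DEGs.

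In the other populations of ChN mice the members gave 0 or 1 DEG. In CA1 PNs 0 of 7 were DEGs (3.74% of all genes), with LFCs of -0.32 to -0.01 and a median of -0.12 that became 0.08 without the libraries with CA2 markers (7.0% of all genes), when 0 of 7 were DEGs again. In DGCs 1 of 7 was a DEG (8.52% of all genes). This was mt-Co1, at 1637 to 2015 CPM (median 1858, 1845 ± 142, n = 6) in Ts and 1661 to 2424 CPM (median 2050.0, 2089 ± 286, n = 6) in 2N DGCs (LFC -0.18, SE 0.08, adjusted p = 0.521), and the groups overlapped. It was no DEG without mouse 16-357, 17-154 or 17-21. CA2 markers differed between these groups, at 226 to 316 CPM in Ts and 139 to 228 CPM in 2N DGCs. Much of this was Pcp4, at 155 to 234 CPM against 78.0 to 133 CPM, and without it the list was at 71.4 to 95.4 CPM against 54.0 to 94.4 CPM. Its part in the result was not tested. The difference between the Ts effects of a pair of populations was tested directly, and 0 of 7 members passed for CA1 PNs against CA3 PNs (4.25% of all genes), for CA1 PNs against DGCs (5.51%) and for CA3 PNs against DGCs (5.18%). Without the libraries with CA2 markers mt-Nd2 passed for CA1 PNs against CA3 PNs (LFC 0.53, adjusted p = 0.96, beside 5.04% of all genes), and 0 of 7 passed for the other pairs. For CA3 PNs against DGCs all 7 differences were below 0, with a median of -0.13 with all libraries, which does not show that the effects were alike or unlike.

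In ChP mice the members that were DEGs were lower in Ts CA3 PNs and higher in Ts DGCs. In Ts CA3 PNs 2 of 7 members were DEGs (5% of all genes), mt-Co1 at 1945 to 2458 CPM (median 2144, 2200 ± 204, n = 7) against 2248 to 2867 CPM (median 2391, 2440 ± 219, n = 7) in 2N (LFC -0.14, SE 0.06, adjusted p = 0.889), and mt-Nd4 at 684 to 941 CPM (median 759) against 745 to 997 CPM (median 864) (LFC -0.15, SE 0.07, adjusted p = 0.998). Both were lower in Ts, as in ChN mice, and their groups overlapped. Without mouse 14-125, 15-245, 15-269, 15-36 or 17-03 the count was 0. In Ts DGCs 1 of 7 was a DEG (7.6% of all genes), mt-Nd1, which was higher at 856 to 1144 CPM (median 919, 955 ± 89.5, n = 9) in Ts than at 676 to 970 CPM (median 788, 823 ± 99, n = 7) in 2N (LFC 0.20, SE 0.06, adjusted p = 0.185). The ranges overlapped, and mt-Nd1 stayed a DEG with each of the 16 mice left out (LFC 0.17 to 0.24). Inhibitory neuron markers were at 219 to 319 CPM in Ts and 167 to 248 CPM in 2N DGCs of ChP mice, and CA2 markers without Pcp4 at 67.9 to 93.0 CPM and 63.2 to 87.7 CPM. Their part in the result was not tested. In CA1 PNs 0 of 7 were DEGs (3.58% of all genes). Without the libraries with CA2 markers mt-Nd2 (LFC -0.35, adjusted p = 0.474) and mt-Nd4 (LFC -0.38, adjusted p = 0.732) were DEGs, lower in Ts, beside 6.3% of all genes.

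**Figure D5:**
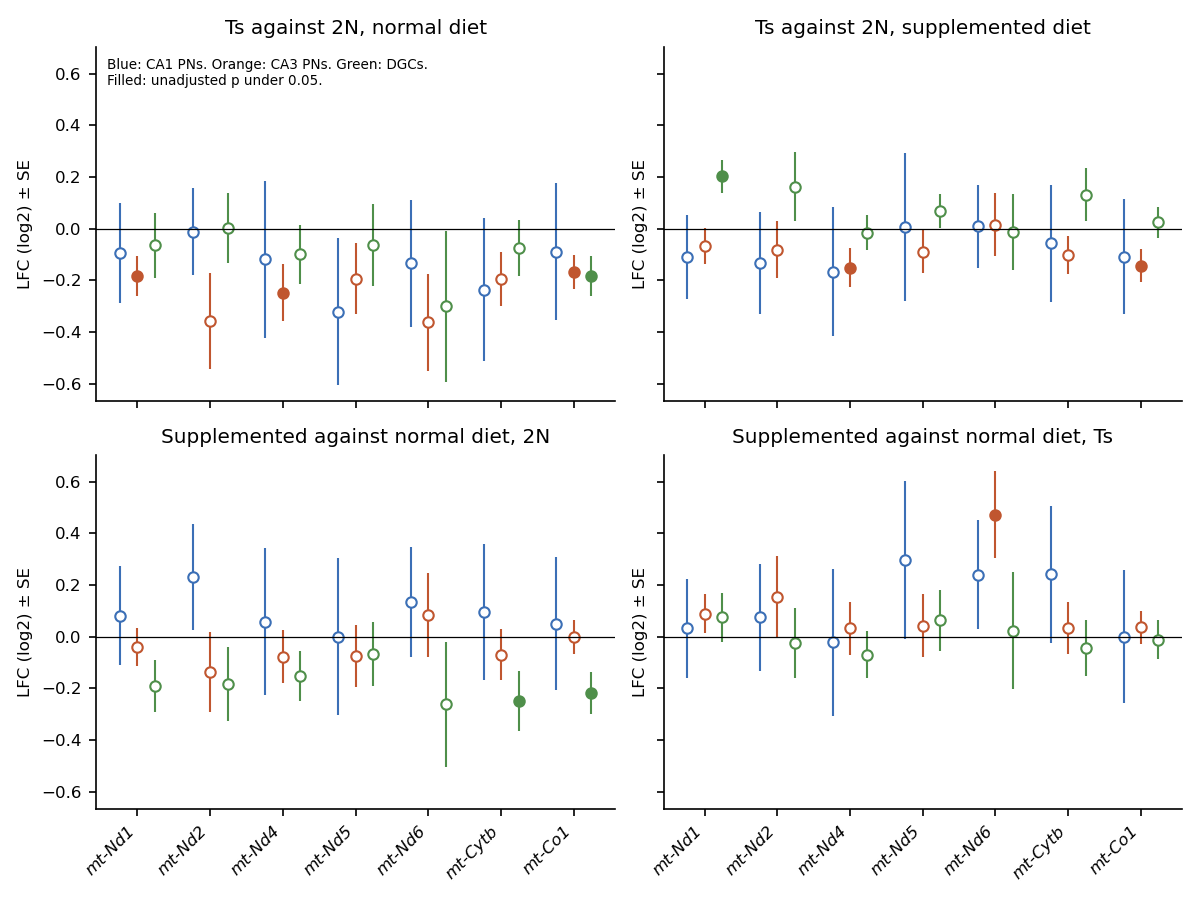
LFC with its SE of each counted member by population, for Ts over 2N in ChN and ChP mice and for ChP over ChN in 2N and Ts mice, with filled points for an unadjusted p below 0.05. All 7 points of CA3 PNs lie below 0 for Ts over 2N in ChN mice, with 3 filled, and all 7 of DGCs lie below 0 for ChP over ChN in 2N mice, with 2 filled.

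Maternal choline was compared within each population and genotype, in 1 fit per population over its 4 groups. In 2N DGCs all 7 members had LFCs below 0 in ChP relative to ChN mice (median -0.19), and 2 of 7 were DEGs beside 5.84% of all genes. mt-Co1 was at 1585 to 2062 CPM (median 1771, 1791 ± 175, n = 7) in ChP and 1661 to 2424 CPM (median 2050.0, 2089 ± 286, n = 6) in ChN mice (LFC -0.22, SE 0.08, adjusted p = 0.755). mt-Cytb was at 994 to 1603 CPM (median 1352, 1339 ± 206, n = 7) in ChP and 1172 to 1910 CPM (median 1678, 1596 ± 269, n = 6) in ChN mice (LFC -0.25, SE 0.11, adjusted p = 0.85). Both overlapped between diets. The 2N ChN DGC libraries used here also enter the comparison of genotype in ChN DGCs and the interaction in DGCs, so these results do not stand apart from each other. mt-Co1 stayed a DEG with each of 28 mice left out, and mt-Cytb did not in 7 of these. mt-Rnr2 was also lower (LFC -0.20, adjusted p = 0.845). In Ts DGCs 0 of 7 were DEGs (3.8% of all genes), with 4 LFCs below 0. In CA3 PNs 1 of 7 was a DEG in Ts mice (4.19% of all genes), mt-Nd6, at 55.4 to 93.9 CPM (median 72.9, n = 7) in ChP and 40.5 to 83.9 CPM (median 47.8, n = 6) in ChN mice (LFC 0.47, SE 0.17, adjusted p = 0.999). mt-Nd6 stayed a DEG with each of 26 mice left out (LFC 0.38 to 0.65). In 2N CA3 PNs 0 of 7 were DEGs (4.91% of all genes). In CA1 PNs 0 of 7 were DEGs in 2N (3.27%) and 0 of 7 in Ts mice (3.05%), and without the libraries with CA2 markers mt-Nd2 became a DEG in 2N mice (LFC 0.33, adjusted p = 0.706, beside 5.69% of all genes), while in Ts mice 0 of 7 were DEGs (3.7%) and the median LFC moved from 0.07 to -0.06. The interaction of genotype and diet was 0 of 7 in CA1 PNs (3.22% of all genes), in CA3 PNs (4.87%) and in DGCs (3.97%). Its 7 values were all above 0 in CA3 PNs (median 0.12) and in DGCs (median 0.21). In DGCs mt-Nd1 and mt-Co1 passed with limma-voom, with no filter or with scaling from genes outside the mitochondrial genome, and mt-Nd1 passed with DESeq2, all above 0. With library totals 0 of 21 interaction values passed over the 3 populations. The shares of all genes that passed under these settings are not given here, so these calls are not set against all genes. Without the libraries with CA2 markers mt-Nd2 and mt-Nd4 (each LFC -0.51) passed in CA1 PNs, beside 5.23% of all genes. The sources used here do not tie the diets to a sequencing run, so a batch between diets cannot be told apart from the diet.

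The triplicated genes include 3 that act beside the members. Atp5pf and Atp5po encode subunits of complex V, and Gabpa encodes a subunit of NRF-2, a transcription factor of nuclear OXPHOS genes. In CA3 PNs of ChN mice Atp5pf rose by an LFC of 0.46 (adjusted p = 0.00152) and Atp5po by 0.45 (adjusted p = 0.00139), and in DGCs by 0.54 (adjusted p = 0.00384) and 0.67 (adjusted p = 0.000358). In CA1 PNs of ChN mice neither was a DEG, at 0.16 and 0.30. Without the libraries with CA2 markers they were at 0.20 and 0.44 there, the latter a DEG (adjusted p = 0.382). In ChP mice Atp5pf and Atp5po had LFCs of 0.47 and 0.53 in CA1 PNs, 0.44 (adjusted p = 0.00833) and 0.51 (adjusted p = 0.00472) in CA3 PNs, and 0.62 (adjusted p = 9.38e-05) and 0.42 (adjusted p = 0.105) in DGCs. Without those libraries they were at 0.55 (adjusted p = 0.0453) and 0.54 (adjusted p = 0.108) in CA1 PNs. Gabpa had LFCs of 0.26, 0.42 and 0.35 in CA1 PNs, CA3 PNs and DGCs of ChN mice and of 0.46, 0.37 and 0.69 in ChP mice, where the last was the one with an adjusted p below 0.05 (0.00168). Of 30 triplicated genes listed as a check of the labels, 16 of 28 tested were DEGs in CA1 PNs of ChN mice (median LFC 0.45), 26 of 29 in DGCs (0.59) and also 26 of 29 in CA3 PNs (0.58), each of them higher in Ts. In CA1 PNs the count was 21 of 28 (0.60) without the libraries with CA2 markers. Those left out include that of mouse 17-154 in ChN and that of mouse 16-272 in ChP mice, whose triplicated genes stood nearer the other genotype. For the triplicated genes, what goes with CA2 markers and what goes with these labels cannot be told apart here. The members of the mitochondrial genome, which both genotypes take from their dams, had medians of -0.12, -0.08 and -0.19 in the same comparisons.

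Nuclear-encoded OXPHOS subunits were also compared between genotypes. In CA3 PNs of ChN mice, beside 9.2% of all genes, 3 of 37 complex I subunits were DEGs, all lower, as was 1 of 9 of complex III, and 0 of 4 of complex II and 0 of 12 of complex IV were DEGs. Of 18 complex V subunits 4 were DEGs there, 3 higher and 1 lower, with Atp5pf and Atp5po among the former. In CA1 PNs 2 of 37, 0 of 4, 0 of 9, 2 of 12 and 2 of 18 were DEGs in the order of the complexes, all lower, beside 3.74% of all genes. These counts were, without the libraries with CA2 markers, 3, 0, 1, 1 and 3, of which 1 in complex III and 1 in complex V were higher, beside 7.0% of all genes. In DGCs, beside 8.52% of all genes, 1 of 37 was higher in complex I, 1 higher and 1 lower of 9 in complex III, 2 of 12 higher in complex IV and 4 of 18 higher in complex V. Genes of mitochondrial transcription and RNA processing gave 0 of 31 DEGs in DGCs, 2 of 30 in CA3 PNs and 2 of 28 in CA1 PNs, and nuclear regulators gave 1, 1 and 0 of 10. In ChP mice complexes I to IV together had DEGs in DGCs only, 2 of 37 in complex I, and complex V had 2, 3 and 4 of 18 in CA1 PNs, CA3 PNs and DGCs, beside 3.58%, 5% and 7.6% of all genes. CA1 PNs of ChP mice, without the libraries with CA2 markers, had 1 DEG in complex I and 2 in complex V, all higher, beside 6.3% of all genes. Among the regulators in Ts DGCs of ChP mice, Gabpb2, which encodes a partner subunit of GABPA, was lower (LFC -0.46, adjusted p = 0.0277). In the comparisons of diet no gene of these lists had an adjusted p below 0.05 by edgeR, while up to 3 of a list passed the unadjusted threshold.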

How the data were processed

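Libraries were made with the SMARTer Stranded Total RNA-Seq Pico kit. Reads were checked with FastQC 0.11.9, trimmed with Trimmomatic 0.39 as needed, aligned with STAR to GRCm39 and quantified with RSEM, with Picard 2.26.2 for alignment measures. The authors deposited expected counts and TPM per gene for each library and a count matrix per population, and no column was without a sample. Of 57010 Ensembl identifiers, 56310 matched a symbol of the Gencode annotation for GRCm39.

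Rounding turned the expected counts into integers. A gene entered a fit when 10 or more of its libraries exceeded 0.1 CPM. Counts were scaled by TMM and tested with edgeR 4.0.16 (quasi-likelihood, robust) in R 4.3.3, and p-values were adjusted by Benjamini-Hochberg over all genes of a fit. The covariates of the study were not used here. DEGs had an unadjusted p below 0.05, and comparisons of populations an adjusted p below 0.05. Limma 3.58.1 (voom) and DESeq2 1.42.0 were alternatives. CPM in the text was scaled by TMM over 81 libraries, correlations used log2 CPM with a prior count of 2, and the deposited TPM served only to rank members. Scripts were tested on simulated data. The members and gene lists were chosen with earlier results of these data known, and leaving out the CA1 PN libraries over 500 CPM of CA2 markers was chosen after seeing the data. All members are named. Of other lists, the genes with an adjusted p below 0.05 in a genotype or diet comparison (up to 3), the 3 triplicated members and the rRNAs are named.

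Libraries of different populations with the same number came from the same mouse, per the labels. The 78 same-mouse pairs had a median correlation of 0.12 (-0.06 to 0.31) of their deviations from the group means over 5261 genes, 44 of them over 0.1, against -0.003 for 2108 pairs from different mice. Within groups, 241 pairs of libraries differed by at least 1.60 in chi-square per degree of freedom, so none was counted as a duplicate. Intervals and floors cover counting error only.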

Additional observations from a re-analysis of the deposited data

Results flagged for a closer look

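In 84 combinations of a counted member and a group of 5 to 9 libraries, the highest or lowest library stood apart from the rest in 14, from 6 libraries. Chance gives about 5% for separate combinations. These were not separate, since most members moved together in a library, so no excess over chance can be read from the 14. Most of the 14 were high CA1 PN libraries among the 10 with CA2 markers. In the Ts ChP library of mouse 15-199, mt-Nd1 was at 1786.0 CPM (next highest 1198), mt-Nd4 at 1451 CPM (833), mt-Nd5 at 3348 CPM (2011) and mt-Co1 at 3765 CPM (2480.0). In the Ts ChN library of mouse 16-357, mt-Nd1 was at 1502 CPM (1011), mt-Nd4 at 1089 CPM (695), mt-Nd5 at 1770.4 CPM (1120) and mt-Co1 at 3108 CPM (1880.2). In the 2N ChN library of mouse 17-21, mt-Nd1 was at 1704 CPM (1134).

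In CA3 PNs of ChN mice mt-Nd2 was at 1249.8 CPM (717) in the library of mouse 15-145, counted as 2N against its label, and at 487 CPM in the lowest Ts library (17-153), with the next at 572 CPM. In Ts ChN DGCs the library of mouse 16-490 was lowest for mt-Nd5 (784 CPM, next 1139.8), mt-Nd6 (41.1 CPM, 72.3) and mt-Cytb (1283 CPM, 1536). Their causes were not tested.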

How the results depend on the processing

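Of 42 comparisons of a counted member between genotypes, 7 were DEGs by edgeR, 7 by DESeq2 and 11 by limma-voom, and none of the 7 edgeR DEGs changed sign. Among all 42 values the sign changed for 3 with DESeq2 and 5 with limma-voom. Without the CA1 PN libraries with CA2 markers the number of members called was 4, 5 and 5 for CA1 PNs against CA3 PNs in 2N ChN, 2N ChP and Ts ChP mice, 2, 1 and 1 for CA1 PNs against DGCs in 2N ChN, 2N ChP and Ts ChN, 3, 4 and 4 for CA3 PNs against DGCs in 2N ChN, Ts ChN and Ts ChP, and in CA1 PNs 2 for genotype in ChP, 1 for diet in 2N, 2 for the interaction and 1 for the Ts effect against CA3 PNs. With limma-voom it was 7 for genotype in ChN CA3 PNs, 2 for the interaction in DGCs, 2 and 2 for CA1 PNs against CA3 PNs in 2N ChN and 2N ChP, 3 and 4 for CA3 PNs against DGCs in 2N ChN and Ts ChN, and 1 for the Ts effect of CA1 PNs against CA3 PNs. With no filter it was 5 for genotype in ChN CA3 PNs, 3 in ChP DGCs, 4 for diet in 2N DGCs, 1 and 2 for the interaction in CA3 PNs and DGCs, 2 and 4 for CA3 PNs against DGCs in 2N ChN and Ts ChN, 3 for CA1 PNs against CA3 PNs in 2N ChP and 0 for CA1 PNs against DGCs in Ts ChP. With library totals it was 1 for diet in 2N DGCs, 2 and 1 for CA1 PNs against CA3 PNs in 2N ChP and Ts ChP, 2, 1 and 0 for CA1 PNs against DGCs and 3, 2 and 0 for CA3 PNs against DGCs in 2N ChP, Ts ChN and Ts ChP. With DESeq2 it was 1 for genotype in ChP CA3 PNs, 1 for the interaction in DGCs and 2 for CA3 PNs against DGCs in Ts ChN, with scaling from genes outside the mitochondrial genome 2 for the interaction in DGCs, with both diets in 1 fit 5 and 1 for genotype in ChN and ChP CA3 PNs, and with the library of mouse 15-145 as Ts 0. With the mouse as a replicate block, the pairing gave 2 for CA3 PNs against DGCs in 2N ChN, 2 for CA1 PNs against DGCs in 2N ChP and 0 in Ts ChP, and 18 calls against 20 over all population comparisons, 17 of them shared. With each mouse left out in turn, the count was 0 to 0 for each CA1 PN comparison of genotype, diet or interaction, 1 to 7 and 0 to 2 for genotype in ChN and ChP CA3 PNs, 0 to 2 and 1 to 1 in DGCs, 0 to 0 and 1 to 1 for diet in 2N and Ts CA3 PNs, 1 to 4 and 0 to 0 in DGCs, and 0 to 1 and 0 to 2 for the interaction in CA3 PNs and DGCs. For CA1 PNs against CA3 PNs, CA1 PNs against DGCs and CA3 PNs against DGCs it was 0 to 1, 0 to 0 and 0 to 2 in 2N ChN, 0 to 2, 2 to 5 and 4 to 6 in 2N ChP, 1 to 4, 1 to 2 and 1 to 3 in Ts ChN, and 0 to 1, 0 to 2 and 0 to 1 in Ts ChP, and 0 to 1, 0 to 0 and 0 to 0 for the Ts effects. The shares of all genes called without the CA1 PN libraries with CA2 markers are given above. Those under the other settings are not given here, so these counts of members are not set against all genes. The causes were not tested. At the depth here, mt-Nd6, with 28 counts in 1 library, was the least precise member.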
